A study of Mus musculus with 2 samples.

Results

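The 32 genes described here are the enzymes, transporters and regulators of glycolysis together with genes induced when oxygen is low. They were taken by symbol from the 32285 genes listed in each deposited count table, and each symbol matched 1 gene. The 19 genes of the glycolysis arm are the glucose transporters Slc2a1 and Slc2a3, the hexokinases Hk1, Hk2 and Hk3, the pathway enzymes Gpi1, Pfkl, Pfkp, Tpi1, Gapdh, Pgk1, Pgam1, Eno1 and Pkm, the regulators Pfkfb3 and Pfkfb4, and the lactate-handling genes Ldha, Slc16a3 and Pdk1. The 13 genes of the hypoxia arm are Bnip3, Bnip3l, Egln1, Egln3, Ndrg1, Adm, Vegfa, Ankrd37, P4ha1, P4ha2, Ero1l, Mif and Higd1a. Aldoa, an aldolase of the same pathway, is not among them, and its symbol is carried by 2 gene identifiers in the tables.

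Glycolysis splits glucose to pyruvate and yields ATP without oxygen, and lactate dehydrogenase then turns pyruvate to lactate, which monocarboxylate transporters carry out of the cell. When oxygen is scarce, the prolyl hydroxylases encoded by the Egln genes stop marking the alpha subunits of the hypoxia-inducible factors (HIF) for destruction, and HIF switches on most glycolytic genes, Vegfa, Bnip3 and Egln3 itself. Neutrophils hold few mitochondria and draw most of their ATP from glycolysis, and macrophages in poorly perfused tumour regions are known to carry HIF target transcripts.

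Droplet single-cell RNA sequencing had measured cells of mouse tumours (Mus musculus) in a control group and in a group given motolimod, a synthetic compound that activates TLR8, an endosomal sensor of RNA, with 1 library per group. The labels name 5 mice per group but neither the tumour model, the mouse strain, the age, the dose nor what the controls received, and they do not say whether mice were pooled. The cells of both groups had been enriched for the leukocyte marker CD45 before loading. With 1 library per group there is no replicate, so no p-value is given, each range in parentheses after a level, ratio or share is a 95% interval for counting error only, and a difference between treatments cannot be told apart from a difference between libraries.

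The Control library held 127609378 UMIs (unique molecular identifiers, each counting 1 captured transcript) over 8099 barcodes, and the Motolimod library 62057685 over 10037. After the filters, 7484 and 9314 barcodes remained, and 113 barcode sequences occurred in both libraries. Marker gates placed 4680 Control and 4607 Motolimod barcodes among macrophages and monocytes, 441 and 2337 among neutrophils, 282 and 280 among T cells, and 747 and 76 among keratin-positive cells. Median UMIs per cell differed between the libraries in macrophages (14250.5 and 6213) and were close in neutrophils (1863 and 1994). They were 5398 and 4378 in T cells and 40199 and 49127 in keratin-positive cells. The classes carried their defining markers, most of which the gates used: C1qa, a complement gene of macrophages, was at 3701 and 2270.1 UMIs per 1000000 UMIs of the class and library (CPM) in macrophages, S100a9, a neutrophil granule gene, at 52719.8 and 41391 CPM in neutrophils, and Cd3e, a T cell receptor subunit, at 866 and 1048 CPM in T cells. Keratin-positive cells carried Krt8 at 1282 and 1156 CPM but the epithelial marker Epcam at 4.10 and 4.27 CPM, and nothing in the labels tells tumour from other epithelial cells, so they are called keratin-positive here.

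The promoters of 5 members are shown because 4 of them, Egln3, Bnip3, Slc16a3 and Slc2a1, were higher both in neutrophils and in 1 macrophage state in both libraries. Tpi1, a core enzyme that was higher in the same macrophage state but not in Control neutrophils, is shown beside them. Each window runs from 250 bases before to 50 bases after the RefSeq start of the gene in build GRCm38.p6, and is written 5′ to 3′ on the strand of the gene: Egln3 at chr12:54203825-54204124 (minus strand), Bnip3 at chr7:138909457-138909756 (minus strand), Slc16a3 at chr11:120948817-120949116 (plus strand), Slc2a1 at chr4:119108495-119108794 (plus strand) and Tpi1 at chr6:124814109-124814408 (minus strand). Capitals mark ACGTG and its reverse complement CACGT, the core letters of the hypoxia response element. The sequences are:
Egln3: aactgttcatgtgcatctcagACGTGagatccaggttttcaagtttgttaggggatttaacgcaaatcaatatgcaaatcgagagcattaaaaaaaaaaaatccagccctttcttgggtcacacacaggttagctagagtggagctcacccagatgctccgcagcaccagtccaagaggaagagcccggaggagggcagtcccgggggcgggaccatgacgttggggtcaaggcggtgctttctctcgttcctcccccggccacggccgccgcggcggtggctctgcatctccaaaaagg
Bnip3: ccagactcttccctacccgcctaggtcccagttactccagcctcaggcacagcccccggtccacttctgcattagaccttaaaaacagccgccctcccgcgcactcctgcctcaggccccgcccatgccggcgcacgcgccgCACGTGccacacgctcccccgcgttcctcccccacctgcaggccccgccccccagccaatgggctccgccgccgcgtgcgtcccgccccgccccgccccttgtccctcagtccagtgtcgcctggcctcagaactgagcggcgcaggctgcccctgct
Slc16a3: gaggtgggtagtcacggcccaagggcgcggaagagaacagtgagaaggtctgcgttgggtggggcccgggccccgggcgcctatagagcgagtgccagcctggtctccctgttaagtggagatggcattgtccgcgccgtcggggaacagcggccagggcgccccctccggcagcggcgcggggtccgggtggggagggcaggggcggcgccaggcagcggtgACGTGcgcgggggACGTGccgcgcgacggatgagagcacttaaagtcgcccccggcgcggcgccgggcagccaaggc
Slc2a1: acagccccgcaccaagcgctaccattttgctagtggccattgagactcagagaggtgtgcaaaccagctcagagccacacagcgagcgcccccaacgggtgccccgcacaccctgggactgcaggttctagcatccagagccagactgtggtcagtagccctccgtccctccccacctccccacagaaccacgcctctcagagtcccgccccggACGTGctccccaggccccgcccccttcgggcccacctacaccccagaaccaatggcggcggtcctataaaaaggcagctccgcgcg
Tpi1: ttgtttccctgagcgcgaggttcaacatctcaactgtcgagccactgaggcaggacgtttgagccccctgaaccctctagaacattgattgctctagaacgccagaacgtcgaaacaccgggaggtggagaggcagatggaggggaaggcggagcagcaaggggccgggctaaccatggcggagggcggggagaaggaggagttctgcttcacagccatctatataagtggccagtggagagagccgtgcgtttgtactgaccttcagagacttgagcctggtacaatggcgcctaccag

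RefSeq windows were matched for 28 of the 32 members, and Bnip3l, Ero1l, Ndrg1 and Slc2a3 are named only. The letters ACGTG or CACGT, which overlap where CACGTG occurs, were in at least 1 window of 20 of these 28 members. By window they were in 21 of 36 (58.3%), against 6447 of 32851 windows of all genes (19.6%). The printed Bnip3 and Slc16a3 windows each hold 2 matches, those of Egln3 and Slc2a1 1 each, and that of Tpi1 0. The printed genes do not stand for the rest. Pfkl, higher in neutrophils and in the Mmp12 macrophage state described below in both libraries, has 0 matches. Ldha, Pgk1 and Gapdh, higher in that state but not 1.5-fold higher in Control neutrophils, have up to 5, 2 and 1 in a window. A match is a description of letters and no measure of HIF binding, which was not measured in these cells.

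Every class transcribed most of the module. In macrophages the 32 genes together made up 12145 (12119.9 to 12171) CPM of the Control UMIs and 10088 (10056 to 10121) CPM of the Motolimod UMIs. Neutrophils stood at 16837 (16592 to 17085) and 16084 (15977 to 16192) CPM, T cells at 10717 (10591 to 10844) and 7870.3 (7736 to 8006) CPM, and keratin-positive cells at 19514 (19464 to 19563) and 18234 (18102 to 18367) CPM. In each library the order was therefore keratin-positive cells, neutrophils, macrophages and T cells. Per cell the order was another, neutrophils holding few UMIs: a macrophage held 185 and 81.7 member UMIs on average, and a neutrophil 40.7 and 36.7. A CPM value is a share of the transcripts captured and says nothing of glucose use. Gapdh gave 18.9% and 23.6% of the member UMIs in macrophages, and Mif, Pkm and Ldha were the other large contributors, so the sums mainly follow these few genes.

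**Figure D1:**
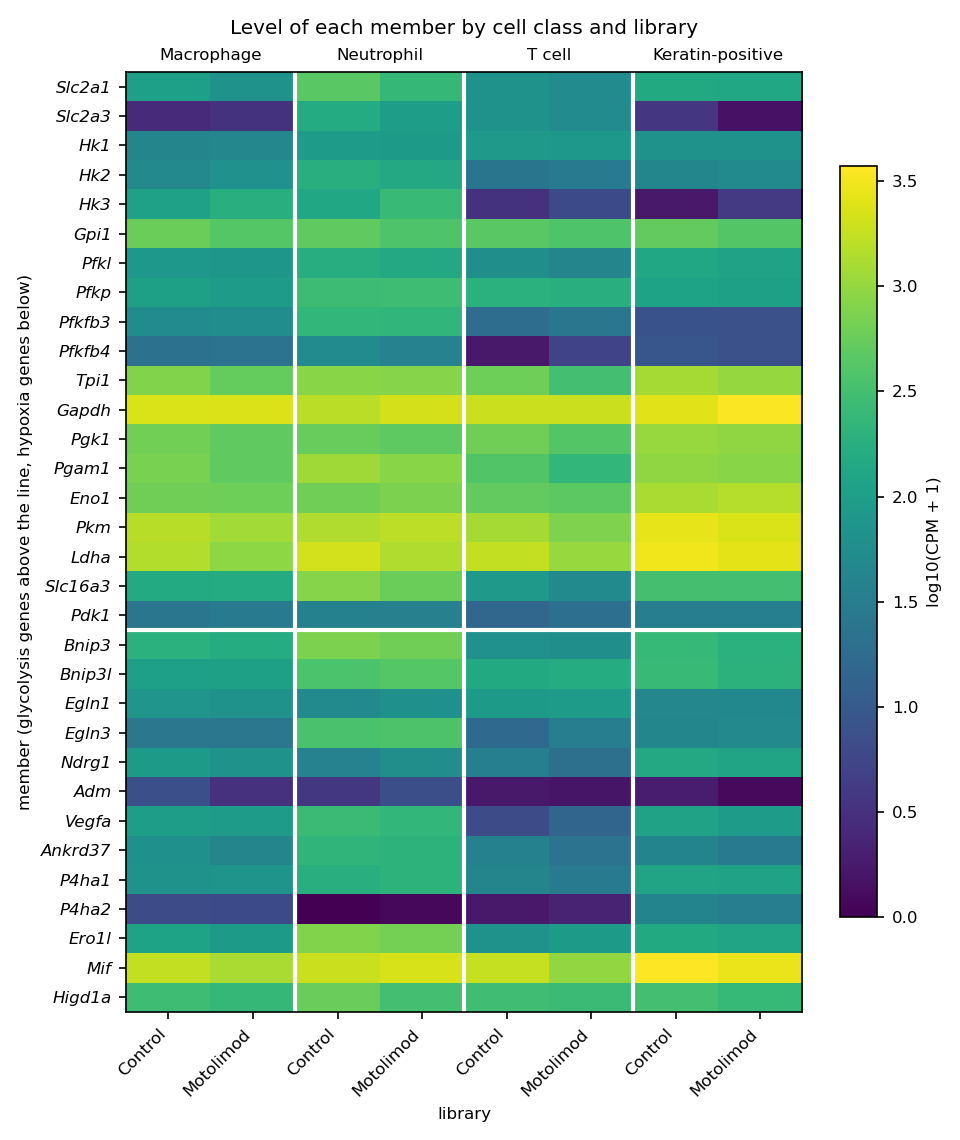
Level of each of the 32 members (rows) in 4 cell classes, Control and Motolimod side by side (columns), as log10 of CPM plus 1, from 1 library per group. Slc2a3 and Egln3 are brightest in neutrophils, P4ha2 is darkest there, and Hk3 is dark in T and keratin-positive cells.

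Neutrophils carried a larger share of the module than macrophages, with the widest ratios in glucose uptake, lactate export and the hypoxia arm. In the Control library 19 of the 30 members measured (a mean of at least 5 CPM over the 2 classes) were at least 1.5-fold higher in neutrophils and 1 was lower, while 18.9% of all genes measured were higher and 62.5% lower. In the Motolimod library 20 of 30 were higher and 0 lower, beside 18.3% and 58.5% of all genes. Slc2a3 reached the minimum through its neutrophil level alone, so the filter decided its direction. It is part of these counts and of the medians. Of the members past 1.5-fold, 17 were shared by both libraries. The median log2 ratio of the members was 1.11 (Control) and 0.85 (Motolimod), beside -1.16 and -0.93 over all genes measured. The 10 neutrophil markers alone took 91279 and 73575 CPM in neutrophils. Relative to the median gene of this contrast the members stood higher still. The summed level was 1.39-fold (1.37 to 1.41) and 1.59-fold (1.58 to 1.61) that of macrophages, with 1.22 (1.20 to 1.246) and 1.36 (1.35 to 1.37) for the glycolysis arm and 1.92 (1.87 to 1.97) and 2.40 (2.37 to 2.44) for the hypoxia arm.

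Among the glucose transporters, Slc2a3 (the high-affinity transporter GLUT3, gene at chr6:122727809-122801640, build GRCm38) separated the myeloid classes most, its direction being decided by the filter. It stood at 157 CPM in Control neutrophils and 1.74 CPM in Control macrophages, a ratio of 89.98 (70.9 to 114). In the Motolimod library the levels were 95.1 and 2.33 CPM, a ratio of 40.8 (32.4 to 51.8). With every cell thinned to 1000 UMIs, which sets depth equal, 13.5% (10.3 to 17.2) of Control neutrophils and 0.108% (0.0350 to 0.251) of Control macrophages held an Slc2a3 UMI, and 7.44% (6.38 to 8.61) and 0.244% (0.122 to 0.437) in the Motolimod library. Unthinned, the shares were 23.6% and 2.39%, and 13.8% and 1.58%. The macrophage share lies near that of Control keratin-positive cells (0.268%, 0.0324 to 0.964 thinned). No background level was estimated, so whether the macrophage UMIs are background was not tested. T cells, which also use this transporter, were at 66.9 and 51.0 CPM. Slc2a1 (GLUT1), the transporter most cells use, was also higher in neutrophils, at 459 against 104 CPM (Control, ratio 4.44, 4.04 to 4.86) and 235 against 67.4 CPM (Motolimod, ratio 3.49, 3.26 to 3.74). The hexokinases trap glucose in the cell by phosphorylation: Hk2 was 3.62-fold and 2.24-fold higher in neutrophils and Hk1 2.19-fold and 2.02-fold. Hk3, a myeloid hexokinase, was closer between the classes, at 1.22 (1.03 to 1.44) and 1.43 (1.35 to 1.52).

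Among the enzymes in the middle of the pathway, several were level between these classes and others were higher in neutrophils. Gapdh (glyceraldehyde-phosphate dehydrogenase) was at 1599.9 CPM in neutrophils and 2299 CPM in macrophages of the Control library, and at 2210.1 and 2379.8 CPM in the Motolimod library, ratios of 0.696 and 0.929. The ratios of Gpi1 (glucose-phosphate isomerase), Pgk1 (phosphoglycerate kinase), Eno1 (enolase) and Pkm (pyruvate kinase) lay between 0.841 and 1.37 in both libraries. Eno1 has a near-identical copy, Eno1b (70.7 and 53.0 CPM in macrophages), so its value is uncertain. Tpi1 (triosephosphate isomerase) was at 1.11 and 1.57, and Pgam1 (phosphoglycerate mutase) at 1.63 and 1.69. The control point above them stood apart: the phosphofructokinase subunits Pfkl (2.11 and 1.88) and Pfkp (2.58 and 3.14) were higher in neutrophils. So was Pfkfb3, whose product makes the allosteric activator of phosphofructokinase, at 232 against 52.4 CPM (Control, 4.43, 3.88 to 5.04) and 224 against 55.5 CPM (Motolimod, 4.03, 3.75 to 4.33). Its relative Pfkfb4 was at 2.59 and 1.73.

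At the lactate end, the exporter Slc16a3 (MCT4; gene at chr11:120948480-120960868) stood at 825 CPM in neutrophils and 153 CPM in macrophages of the Control library, 5.40-fold (5.03 to 5.78) higher. In the Motolimod library the values were 578 and 157 CPM, 3.68-fold (3.52 to 3.85). With cells thinned to 1000 UMIs it was seen in 50.7% (45.8 to 55.7) of neutrophils and 15.03% (14.02 to 16.1) of macrophages (Control) and in 38.3% (36.3 to 40.4) and 14.9% (13.9 to 15.98) (Motolimod). The exporter thus differed far more than the enzyme before it: Ldha (lactate dehydrogenase A) was at 1.47 and 1.56. Pdk1, a kinase that shuts pyruvate dehydrogenase, was at 36.6 against 24.2 CPM and 35.2 against 27.9 CPM, and only its Control ratio of 1.51 reached 1.5.

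In the hypoxia arm the oxygen sensor Egln3 (prolyl hydroxylase PHD3; gene at chr12:54178981-54203860) showed the widest gap. It was at 355 CPM in Control neutrophils against 24.9 CPM in Control macrophages (14.2-fold, 12.7 to 15.9), and at 369 against 24.8 CPM in the Motolimod library (14.8-fold, 13.7 to 16.1). Thinned to 1000 UMIs, 20.6% (16.8 to 24.8) and 24.97% (23.2 to 26.8) of neutrophils held an Egln3 UMI, against 3.04% (2.56 to 3.57) and 2.64% (2.19 to 3.15) of macrophages. The other sensor, Egln1, did not share this pattern, at 0.718 and 0.942. Ero1l, an oxidase that forms disulfide bonds in the endoplasmic reticulum, was at 774 against 118 CPM (6.56-fold, 6.10 to 7.05, Control) and 669.5 against 86.2 CPM (7.76-fold, 7.40 to 8.15, Motolimod). The mitophagy receptors, which tag mitochondria for removal, were likewise higher: Bnip3 was 3.92-fold and 3.95-fold and Bnip3l 3.54-fold and 4.10-fold the macrophage level. Ankrd37, an ankyrin-repeat gene induced by hypoxia, stood at 3.58 and 4.89, the growth factor Vegfa at 2.86 and 2.47, and P4ha1, a collagen prolyl hydroxylase subunit, at 2.64 and 2.86. Higd1a, a mitochondrial inner-membrane protein, passed 1.5-fold in the Control library (1.94) but not in the Motolimod library (1.31), and the cytokine Mif the reverse (1.10 and 1.74); these differences between libraries were not tested.

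Not every hypoxia gene followed. Ndrg1, a stress protein induced by hypoxia, was at 37.6 CPM in Control neutrophils against 86.3 CPM in macrophages (0.435, 0.311 to 0.593), and at 57.1 against 64.3 CPM in the Motolimod library (0.888, 0.786 to 1.00). P4ha2, the sister subunit of P4ha1, gave 0 UMIs in Control neutrophils, which allows up to 2.82 CPM, and 1 UMI in Motolimod neutrophils, against 5.58 and 5.39 CPM in macrophages and 39.6 and 32.9 CPM in keratin-positive cells. Adm, the vasodilator peptide adrenomedullin, was under the minimum of 5 CPM in this comparison, at 2.82 and 6.18 CPM in neutrophils. Macrophage markers summed to 950.2 and 987 CPM in neutrophils (all 16 detected) against 15978 and 12588 CPM in macrophages. Neutrophil markers summed to 277 and 356 CPM in macrophages (all 10 detected). The 10 keratin and epithelial markers summed to 13.1 and 4.31 CPM in neutrophils, with 2 and 5 of them detected and Epcam at 0 in both libraries.

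**Figure D2:**
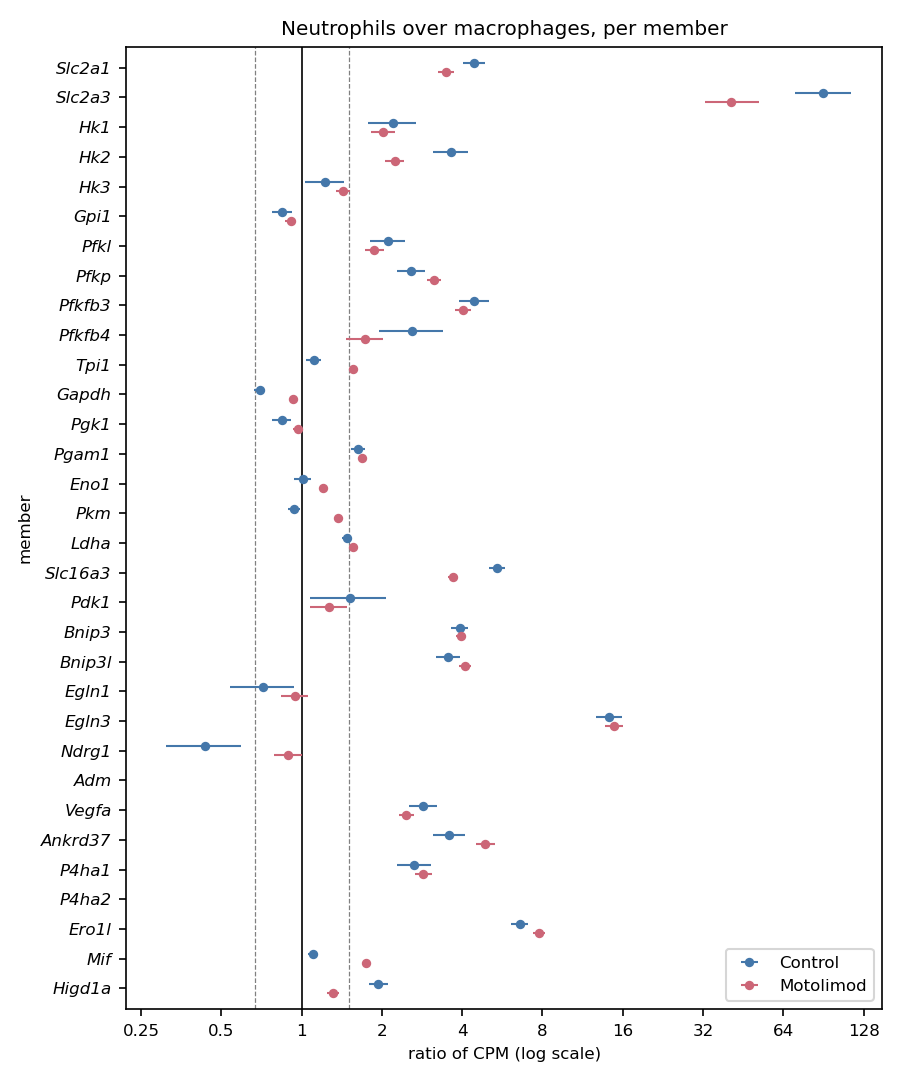
Ratio of CPM in neutrophils to CPM in macrophages for each measured member, on a log axis, in the Control (blue) and Motolimod (red) libraries; bars are 95% intervals for counting error and dashed lines mark 1.5-fold either way. Slc2a3 (89.98 and 40.8) and Egln3 (14.2 and 14.8) lie farthest right, and Gapdh, Gpi1 and Pgk1 lie at or left of 1. Slc2a3 reached the minimum level through neutrophils alone.

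Genes of neighbouring pathways were read in the same contrast from lists that hold no member. Of the HIF targets outside the module, 10 of 13 measured were at least 1.5-fold higher in neutrophils and 2 lower in the Control library, and 10 of 13 higher and 2 lower in the Motolimod library, where 18.9% and 18.3% of all genes were higher. Arg1, among the lower genes, was a marker used in scoring macrophages. Hilpda, which guards lipid droplets from lipolysis, was at 4183 against 318 CPM and 3404 against 257 CPM. The histone demethylase Kdm3a was 7.15-fold and 4.24-fold higher and the stress gene Ddit4 4.47-fold and 5.47-fold. The enzymes that burn pyruvate were mostly lower, as were most genes in this contrast. Of the pyruvate-entry and citric acid cycle list, 14 and 15 of 16 were lower in neutrophils, beside 62.5% and 58.5% of all genes. The median log2 ratio of the list was -1.45 and -1.75, the median of all genes being -1.16 and -0.93. Its 1 higher gene was Acod1, which diverts the cycle to itaconate. Of the oxygen-sensing list, Hif1a (a HIF alpha subunit) was at 181 against 91.2 CPM and 197 against 127 CPM, and 4 of 5 and 3 of 6 measured genes were higher, 1 being lower in each library (Egln2). Of the pentose phosphate list 6 and 4 of 7 were lower and 0 and 1 higher, with 62.5% and 58.5% of all genes lower, so the Motolimod count is at the background. Of the other glycolysis genes, 5 and 4 were measured, with Pgm2 higher and Aldoc and Adpgk lower in both libraries. Rpe and Rpia (Control) and Fh1, Idh3a and Aldoc (Motolimod) were under 5 CPM in neutrophils, so the filter decided their direction here. They are part of these counts.

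Within macrophages the module was concentrated in the state with the highest score for Mmp12, Mmp13, Ccl24 and Arg1, a range of a score and not a cell type, which held 752 Control and 456 Motolimod cells (16.1% and 9.90% of macrophages). In the Control library 27 of 31 measured members were at least 1.5-fold higher in this state than in all other macrophages and 0 lower, beside 4.81% and 12.1% of all genes measured. The Motolimod library had 28 of 31 higher and 1 lower, beside 4.91% and 11.7%. The 26 members higher in both libraries included the 13 of the hypoxia arm. Of these, Adm and P4ha2 reached the minimum of 5 CPM through this state alone, so the filter decided their direction. Both are part of these counts and of the medians. Median log2 ratios were 0.82 and 0.85, against -0.18 and -0.15 over all genes, and 1.61 and 1.61 for the hypoxia arm alone. Here the sums were 18619 (18540.2 to 18698) and 17055 (16930.1 to 17180.1) CPM, or 1.71-fold (1.70 to 1.72) and 1.85-fold (1.84 to 1.87) the sum in the other macrophages. Median depth was 14913 and 7900 UMIs in the Mmp12 state and 23228 and 19184 in the Cycling state. With every cell thinned to the same depth, the ratio of the sums was 1.74 (Control) and 2.04 (Motolimod). Among macrophages of 5000 to 15000 UMIs it was 1.79 and 1.90. The part of depth in the member counts was not tested.

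Adm, a secreted peptide, gave the widest gap. Its direction was decided by the filter, as it reached the minimum of 5 CPM through this state alone. It was at 28.3 CPM in the Mmp12 state and 2.15 CPM elsewhere in the Control library (13.2-fold, 10.7 to 16.3), and at 15.2 and 0.574 CPM in the Motolimod library (26.5-fold, 15.7 to 46.9). Vegfa, which drives vessel growth, stood at 212 against 73.4 CPM (2.89-fold, 2.75 to 3.04) and 229.9 against 75.3 CPM (3.05-fold, 2.83 to 3.29). Mif was 1.71-fold and 2.06-fold higher. All 3 encode secreted products. The sensor Egln3 was at 77.2 against 14.8 CPM (5.21-fold, 4.75 to 5.73) and 91.6 against 16.4 CPM (5.60-fold, 4.90 to 6.39), and Egln1, flat between neutrophils and macrophages, was 2.00-fold and 2.07-fold higher here. Ndrg1, which neutrophils did not favour, was at 240.0 against 56.6 CPM (4.24-fold, 4.03 to 4.46) and 174 against 50.4 CPM (3.45-fold, 3.15 to 3.76). P4ha2, nearly unseen in neutrophils, was at 19.0 against 2.99 CPM and 16.7 against 3.96 CPM, its direction likewise decided by the filter. The Mmp12 state and neutrophils therefore shared high Egln3, Ero1l and Bnip3 but differed in Ndrg1. P4ha2 and Slc2a3 differed as well, but the filter decided the direction of P4ha2 in this state and of Slc2a3 in neutrophils.

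Ero1l was 3.48-fold and 3.86-fold higher in the Mmp12 state, Bnip3 3.08-fold and 3.13-fold, Bnip3l 2.32-fold and 1.87-fold, Ankrd37 3.04-fold and 2.73-fold, Higd1a 1.67-fold and 1.79-fold and P4ha1 1.55-fold and 1.67-fold. In the glycolysis arm the transporter Slc2a1 led, at 229.6 against 79.1 CPM (2.90-fold, 2.77 to 3.04, Control) and 174 against 53.9 CPM (3.22-fold, 2.95 to 3.51, Motolimod). Core enzymes were higher as well: Gpi1, Tpi1, Gapdh, Pgk1, Pgam1, Eno1 and Ldha lay between 1.53-fold and 2.45-fold in both libraries. Pgk1 was at 1139 against 547 CPM (Control) and 1054 against 429.9 CPM (Motolimod). Pfkfb3 was 1.99-fold and 2.02-fold, Slc16a3 1.68-fold and 1.70-fold, Hk2 1.76-fold and 1.65-fold, Pfkl 1.502-fold and 1.69-fold and Pdk1 1.52-fold and 1.78-fold. Members that stayed within 1.5-fold in at least 1 library were Hk1 (1.69 and 1.49), Pfkp (1.38 and 1.52), Pkm (1.35 and 1.52), Hk3 (0.827 and 1.19) and Pfkfb4 (0.931 and 0.642, the latter past 1.5-fold lower). Slc2a3 was under the minimum level in macrophages.

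Of the HIF targets outside the module, 10 of 15 and 9 of 14 were higher in the Mmp12 state and none lower, beside 4.81% and 4.91% of all genes higher, among them Hilpda (4.01 and 3.34) and the adenylate kinase Ak4 (3.503 and 5.11); Arg1, 1 of them, served to define the state. Gated without Arg1, the state's summed level was 1.61-fold and 1.79-fold that of other macrophages. Hif1a itself was at 1.32 and 1.30, within 1.5-fold, as were all other oxygen-sensing genes measured except Vhl in the Control library (1.63). The citric acid cycle list had 0 and 1 higher and 3 and 2 lower of 16. Of all genes 12.1% and 11.7% were lower, so the lower counts lie near the background. No pentose phosphate gene passed 1.5-fold. Neutrophil markers summed to 303 and 367 CPM in this state, close to the 277 and 356 CPM of all macrophages. Keratin and epithelial markers summed to 18.0 and 12.4 CPM, against 15.6 and 6.89 CPM in all macrophages. The part of these markers in the result was not tested. Of the macrophages, 18.7% (1736 of 9287) had their 2 highest state scores within 0.25 of each other and so lay near the border of a state.

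**Figure D3:**
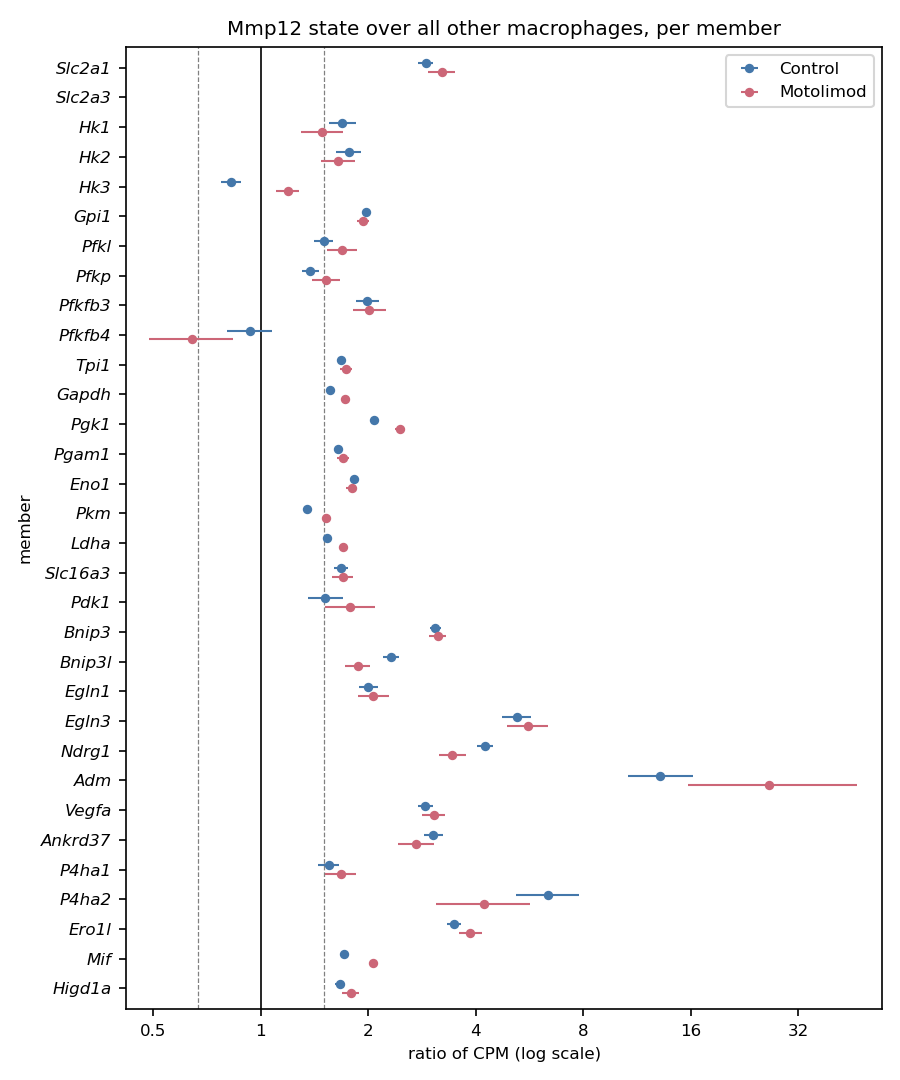
Ratio of CPM in Mmp12-state macrophages to CPM in all other macrophages for each measured member, on a log axis, Control blue and Motolimod red, with 95% intervals for counting error and dashed lines at 1.5-fold. Adm lies farthest right (13.2 and 26.5), and of the measured members Hk3 and Pfkfb4 fall left of 1 in a library. Adm and P4ha2 reached the minimum level through the Mmp12 state alone.

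Across the 8 scored states and the remaining macrophages, the Mmp12 state had the highest level for 25 of 31 members measured in the Control library and 27 of 30 in the Motolimod library. The Lyve1 Cd209 state, marked by genes of perivascular macrophages, had the lowest for 11 members in each library. In the Control library the members that spread most were Adm, from 0.472 CPM in the unscored remainder to 28.3 CPM, Egln3, from 4.30 CPM in the Cd72 Vcam1 state to 77.2 CPM, and P4ha2, from 1.42 to 19.0 CPM. With Motolimod they were Egln3 (4.88 to 91.6 CPM), Ndrg1 (10.6 to 174 CPM) and Vegfa (27.7 to 229.9 CPM). The exceptions to the lead of the Mmp12 state included Slc16a3, highest in Control classical monocytes (346 CPM), Hk3, highest in the Motolimod Cd72 Vcam1 state (247 CPM), and Pfkp, highest in the Motolimod Ass1 MHC class II state (145 CPM).

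By sum, the states ran in the Control library from Mmp12 (18619 CPM) over Gpnmb Cd36, a state of lipid-handling genes (15867), classical monocytes (12756), Ass1 MHC class II (11570.5), the remainder (10681), Cycling (10489), Cd72 Vcam1 (10319) and Cbr2 Tppp3 (9169) to Lyve1 Cd209 (7869 CPM). In the Motolimod library the same states stood at 17055, 8875, 8954, 10982, 9949.7, 9607, 9935, 6066 and 5448 CPM. The top and the bottom of the order were the same, and the Gpnmb Cd36 and monocyte states dropped in rank. Counting intervals of neighbouring states overlapped in the Motolimod library for Gpnmb Cd36 (8793 to 8958) and monocytes (8872 to 9036), and for Cd72 Vcam1 and the remainder.

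**Figure D4:**
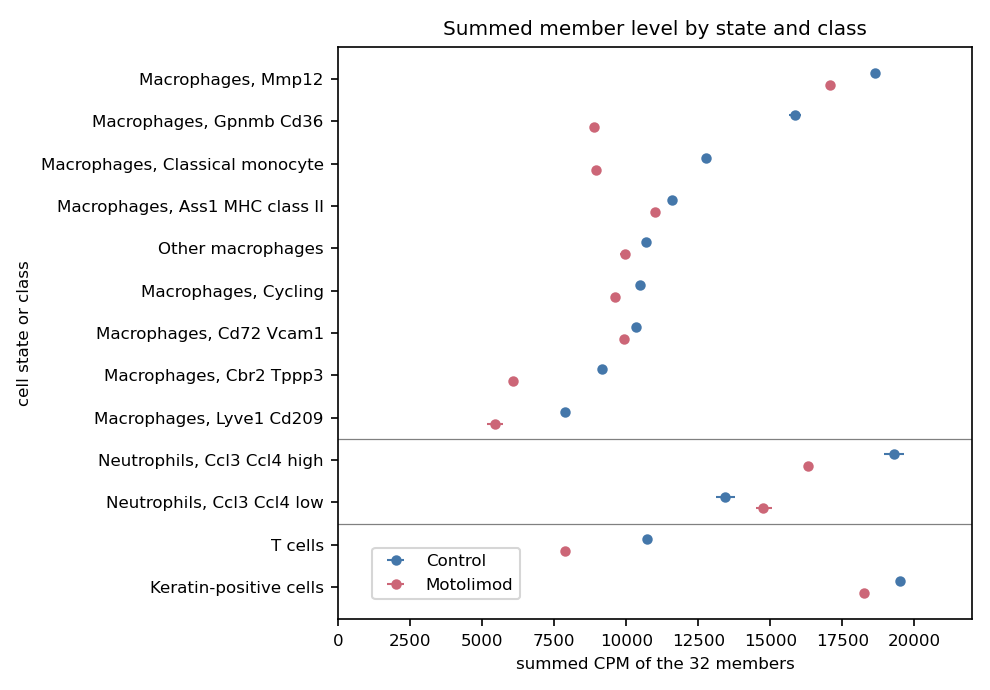
Summed CPM of the 32 members in each macrophage state, neutrophil state and the other classes, Control blue and Motolimod red, with 95% Poisson intervals for counting error (often narrower than the point). The Mmp12 state is highest among macrophages in both libraries (18619 and 17055 CPM), and the gap between libraries is widest in the Gpnmb Cd36 state.

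Neutrophils were split at 25 UMIs of the chemokines Ccl3 and Ccl4 per 10000. Control neutrophils high for the chemokines (247 cells) carried 19302 (18957 to 19651) CPM of member UMIs and the low ones (194 cells) 13435 (13097 to 13779) CPM. In the Motolimod library the 1936 high cells carried 16295 (16179 to 16412) CPM and the 401 low cells 14762 (14485 to 15042) CPM. The module thus followed the chemokine split in the Control library (1.44-fold, 1.39 to 1.48) and less so in the Motolimod library (1.10-fold, 1.08 to 1.13); the difference between libraries was not tested. By gene, 16 of 30 measured members were at least 1.5-fold higher in the high cells and 2 lower (Control), beside 13.3% and 49.9% of all genes, and 4 of 30 higher and 3 lower (Motolimod), beside 9.70% and 38.0%. The 4 members higher in both were Pfkfb3 (3.75 and 1.79), Egln3 (2.66 and 1.56), Ero1l (2.12 and 1.62) and Higd1a (1.87 and 1.54). Pfkfb3 was at 335 against 89.4 CPM and 238 against 133 CPM. The lactate exporter Slc16a3 and the regulator Pfkfb4 ran against the rest: Slc16a3 was at 610.4 against 1122 CPM (ratio 0.544, 0.475 to 0.623) and 523 against 923 CPM (0.566, 0.520 to 0.618). Pfkfb4 was at 0.505 and 0.347. Slc2a3 was level in the Control library (0.956) and lower in the high cells of the Motolimod library, at 83.0 against 172 CPM. Median log2 ratios were 0.61 and 0.15, against -0.58 and -0.38 over all genes, and median depths were 2079 and 1719.5 UMIs (Control) and 2104 and 1574 (Motolimod).

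Between treatments, the summed level in macrophages was lower with Motolimod, at 10088 against 12145 CPM, a ratio of 0.831 (0.827 to 0.834). Of 30 measured members 1 was at least 1.5-fold higher and 2 lower, beside 8.67% and 5.54% of all genes, so the shares lie near or under the background, and the median log2 ratio was -0.08 against 0.04 over all genes. Ldha was at 1422 CPM in Control and 907 CPM in Motolimod macrophages (0.638, 0.630 to 0.646), and Slc2a1 at 104 and 67.4 CPM (0.651, 0.622 to 0.681). Hk3 went the other way, from 108 to 180.3 CPM (1.66, 1.61 to 1.72). Just inside 1.5-fold stood Ankrd37 (0.674), Tpi1 (0.694), Pgam1 (0.710), Gpi1 (0.715) and Ero1l (0.731), all lower, and Hk2 (1.34), higher. Members nearly level were Gapdh (1.04), Slc16a3 (1.03), Egln3 (0.997), P4ha1 (1.03), Vegfa (0.967) and Bnip3l (1.02), and the rest lay between 0.745 (Ndrg1) and 1.15 (Pdk1). The macrophages of the libraries differed in depth and in their mix of states. With the Control mix of states the ratio of the sums was 0.899, and among macrophages of 5000 to 15000 UMIs it was 0.785. With cells thinned to 1000 UMIs, 7 members were lower, and 5 with equal weight per cell.

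The summed ratio was 0.559 (0.550 to 0.569) in the Gpnmb Cd36 state, 0.662 (0.649 to 0.675) in Cbr2 Tppp3, 0.692 (0.656 to 0.730) in Lyve1 Cd209 and 0.702 (0.694 to 0.710) in classical monocytes. It was nearer 1 in the others, at 0.916 (0.908 to 0.924) in Mmp12, 0.916 (0.907 to 0.925) in Cycling, 0.949 (0.940 to 0.958) in Ass1 MHC class II and 0.963 (0.954 to 0.972) in Cd72 Vcam1. Among cells of 5000 to 15000 UMIs it was 0.844 (0.833 to 0.854) in Mmp12 and 1.01 (0.985 to 1.04) in Cycling. In that band Ass1 MHC class II stood at 0.936, Cd72 Vcam1 at 0.953, Cbr2 Tppp3 at 0.736, Lyve1 Cd209 at 0.761 and classical monocytes at 0.686. Cells of the Cbr2 Tppp3, classical monocyte and Mmp12 states were spread differently over Leiden clusters in the 2 libraries. A cluster of Gpnmb Cd36 score held 12 of 190 Control and 447 of 865 Motolimod Cbr2 Tppp3 cells. Of the classical monocytes it held 8 of 619 and 307 of 827. Of the Mmp12 state, a cluster of Mmp12 score held 465 of 752 Control and 133 of 456 Motolimod cells, and another such cluster 38 and 144. The ratios of the Cbr2 Tppp3, classical monocyte and Mmp12 states therefore compare different mixes of cells as well. In the Gpnmb Cd36 state 0 of 31 measured members were at least 1.5-fold higher and 19 lower with Motolimod, beside 17.5% and 15.1% of all genes, with a median log2 ratio of -0.89 against 0.03. Slc2a1 was at 154 CPM in Control and 42.1 CPM in Motolimod cells of this state (0.273, 0.224 to 0.332), Ero1l at 217 and 71.5 CPM (0.330, 0.282 to 0.386), Ldha at 1772 and 746 CPM (0.421, 0.400 to 0.443). Adm was at 20.7 CPM from 28 UMIs and 0.592 CPM from 3 UMIs (0.0287, 0.00558 to 0.0928). Hk3 (1.04), Hk2 (0.919) and Bnip3l (0.873) were near level, while the lower glycolysis genes were Slc2a1, Gpi1, Pfkp, Tpi1, Pgk1, Pgam1, Pkm and Ldha. Adm reached the minimum through the Control cells alone, so the filter decided its direction. The state held 110 Control and 908 Motolimod cells with median depths of 11156 and 4526 UMIs. The cells of this state fell in different Leiden clusters in the 2 libraries: the cluster with the highest Gpnmb Cd36 score held 4 of the 110 Control cells and 527 of the 908 Motolimod cells. Control cells lay mostly in a cluster of Mmp12 score (32), a Cd72 Vcam1 cluster (23) and a second Mmp12 cluster (17), which held 16, 38 and 6 of the Motolimod cells. A further Mmp12 cluster held 4 of the Control and 164 of the Motolimod cells. The ratios in this state therefore compare different mixes of cells as well as different libraries. Among its cells of 5000 to 15000 UMIs (56 and 359 cells) the summed ratio in the same state was 0.494 (0.482 to 0.505). Neutrophil markers in the state summed to 231 and 401 CPM (all 10 markers tested) and the 5 platelet markers to 12.5 and 54.3 CPM, and their part in the result was not tested.

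In neutrophils the sum was nearly level, 16837 against 16084 CPM (0.955, 0.940 to 0.971), while single members differed. Of 30 measured members 2 exceeded 1.5-fold with Motolimod and 3 were lower by as much, beside 27.7% and 18.0% of all genes, and the median log2 ratio was -0.09 against 0.14, so the members called are fewer than the background shares. With median-of-ratios scaling 1 was higher and 6 lower. Both transporters were lower, Slc2a1 at 459 CPM in Control and 235 CPM in Motolimod (0.512, 0.461 to 0.570) and Slc2a3 at 157 and 95.1 CPM (0.607, 0.508 to 0.727). Hk3 was higher, at 132 and 258 CPM (1.95, 1.64 to 2.33), as it was in macrophages. Higd1a was at 559 and 316 CPM (0.566, 0.515 to 0.622), and Ndrg1 at 37.6 CPM from 40 UMIs and 57.1 CPM (1.52, 1.09 to 2.17). The Ndrg1 ratio was 0.727 when droplets with markers of several lineages were kept. Lower but within 1.5-fold were Ldha (0.673), Slc16a3 (0.700), Pfkfb4 (0.712) and Pgam1 (0.737), and higher were Gapdh (1.38), Egln1 (1.22), Mif (1.19), Bnip3l (1.18), Pkm (1.16) and Eno1 (1.15). Egln3, the member that marked neutrophils, was level, at 355 and 369 CPM (1.04, 0.931 to 1.16). Of the alternatives run, the direction of the sum turned with a filter of 1000 or more genes, 2000 or more UMIs and no more than 5% mitochondrial UMIs. That filter kept 49 Control and 370 Motolimod neutrophils and gave a ratio of 1.14.

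T cells gave the lowest summed ratio of the 4 classes, 7870.3 against 10717 CPM (0.734, 0.719 to 0.750) with equal weight per UMI. With equal weight per cell or after thinning, macrophages (0.749 and 0.743) lay under T cells (0.831 and 0.820). Of 28 measured members 2 were at least 1.5-fold higher and 9 lower, beside 19.4% and 9.35% of all genes, with a median log2 ratio of -0.18 against 0.11. Tpi1 was at 606 and 314 CPM (0.518, 0.468 to 0.572), Mif at 1797 and 989 CPM (0.550, 0.520 to 0.582) and Ldha at 1762 and 1035 CPM (0.588, 0.556 to 0.621). Pgam1 (0.591), Slc16a3 (0.609), Pkm (0.615) and Pgk1 (0.666) were lower as well, while Gpi1 (0.871) and Eno1 (0.894) did not pass 1.5-fold and Gapdh was level at 1940.1 and 1953 CPM. In the hypoxia arm Ndrg1 (0.588, 0.381 to 0.887) and Ankrd37 (0.617, 0.410 to 0.912) were lower and Egln3 (2.13, 1.39 to 3.29) and Vegfa (2.38, 1.19 to 4.90) higher, the latter from 15 and 23 UMIs. With cells thinned to 1000 UMIs 4 members were lower and the Ankrd37 ratio was 1.18. With each cell weighted equally the Vegfa ratio was 0.994. Pfkfb4, Hk3, Adm and P4ha2 were under the minimum level. Markers of other cells differed in this gate too: macrophage markers summed to 993 and 1577 CPM (14 and 15 of 16 detected, Chil3 at 0 in both), neutrophil markers to 113 and 215 CPM (9 and 10 of 10, Retnlg at 0 in the Control library), and their part in the result was not tested. Keratin and epithelial markers were at 6.96 and 8.39 CPM.

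Keratin-positive cells, 747 in the Control and 76 in the Motolimod library, had the highest sums and no member past 1.5-fold. Of 29 measured members 0 were at least 1.5-fold higher and 0 lower, beside 3.48% and 2.28% of all genes, and the sum was 18234 against 19514 CPM (0.934, 0.927 to 0.942). Gapdh was at 2560.4 and 3557 CPM (1.39, 1.36 to 1.41), the widest difference upward, and Eno1 at 1.14. Downward the widest were Ankrd37 (0.728), Bnip3 (0.771), Bnip3l (0.783), Higd1a (0.785), Mif (0.792) and Vegfa (0.792). The hypoxia arm summed to 5216 (5190.0 to 5241) and 4174 (4111 to 4238) CPM (0.8003, 0.788 to 0.813) and the glycolysis arm to 14298 (14256 to 14340.5) and 14060.4 (13944 to 14177) CPM (0.983, 0.975 to 0.992). Gapdh, higher in the Motolimod cells, is part of the glycolysis sum and Mif, lower, of the hypoxia sum. Ldha, at 3108 and 2669 CPM, was 0.859 here. Slc2a3, Hk3 and Adm were under the minimum level in these cells.

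**Figure D5:**
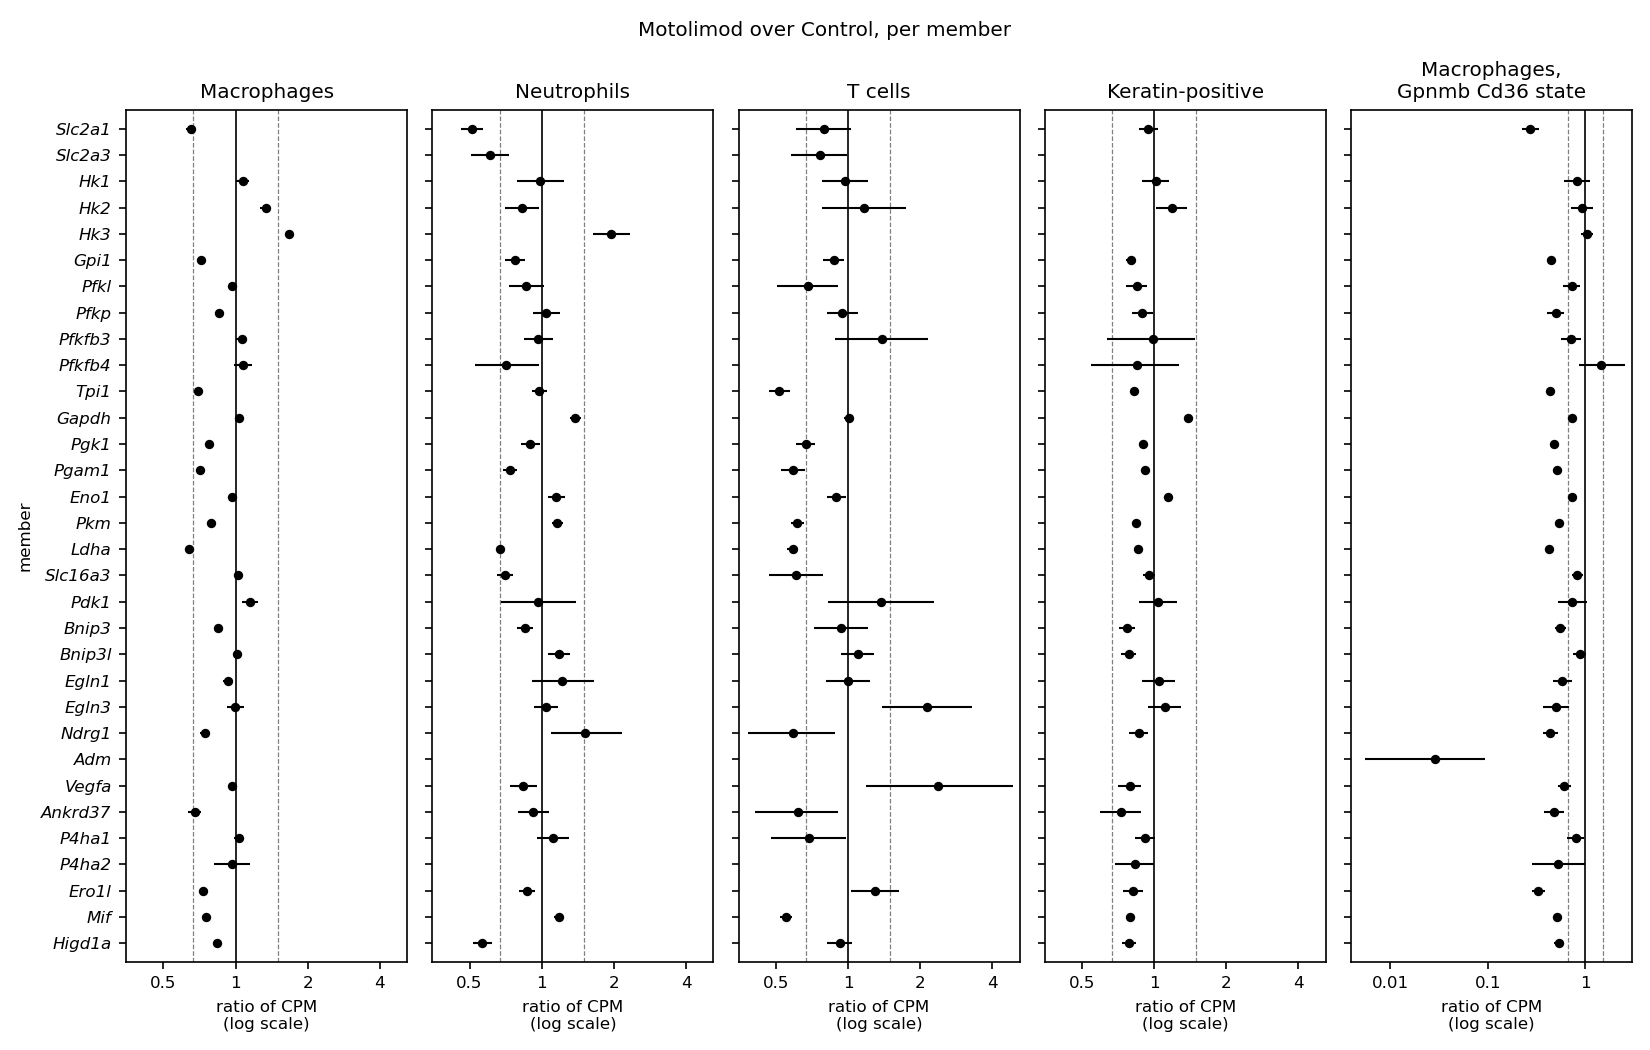
Ratio of Motolimod to Control CPM for each measured member in 4 cell classes and in the Gpnmb Cd36 macrophage state, on log axes (the last panel has a wider one), with 95% intervals for counting error and dashed lines at 1.5-fold. Hk3 is right of 1 in macrophages and neutrophils (1.66 and 1.95), Slc2a1 is left of 1 in all 5 panels, and in the Gpnmb Cd36 state, whose cells fall in different clusters in the 2 libraries, 2 of 31 measured members lie right of 1.

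Of the other pathway genes, the HIF targets outside the module had 3 higher and 2 lower of 15 in macrophages and 2 higher and 1 lower of 13 in neutrophils. Over all genes 8.67% were higher and 5.54% lower in macrophages and 27.7% and 18.0% in neutrophils, so the neutrophil counts lie under the background. The heme oxygenase Hmox1 was higher in both, 323 and 535 CPM in macrophages and 599 and 1255 CPM in neutrophils, as was the nitric oxide synthase Nos2 (2.06 and 2.53), while Ddit4 was lower (0.448 and 0.549). Both higher genes are also targets of other pathways. No oxygen-sensing gene passed 1.5-fold in macrophages (6 measured) or neutrophils (5 measured), with Hif1a at 91.2 and 127 CPM (1.39) in macrophages, and Egln2 (1.47) and Cited2 (0.720) widest in neutrophils. Of the citric acid cycle list, Acod1 was higher in macrophages (38.8 and 107 CPM) and Idh3a (0.595), Fh1 (0.617) and Mdh2 (0.666) lower. Of the remaining glycolysis genes 1 of 8 measured was higher in macrophages and 0 lower, the lactate transporter Slc16a7 (4.09 and 7.48 CPM). In neutrophils 1 of 3 measured was lower and 0 higher, the aldolase Aldoc (13.1 and 4.31 CPM). Each reached the minimum of 5 CPM only through the library where it was higher, so the filter decided its direction.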

How the data were processed

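The members and the gene lists were chosen with earlier results of these data known, so their patterns are descriptions and not independent support. The authors deposited unnormalized counts of UMIs for each gene in each barcode kept by the cell calling of Cell Ranger. Build mm10 and Cell Ranger 5.0.1 are named per the submitters' processing notes, whereas version 7.1.0 stands in the matrices, per the file headers. Whether intron reads were counted is not given in the sources used here. No per-sample column was left unused.

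A barcode was kept with 300 genes or more, 800 UMIs or more and no more than 10% mitochondrial UMIs. Cells were gated on summed marker UMIs per 10000: macrophages and monocytes 20 (at least 3 genes), neutrophils 50 (3 genes), T cells 10 (2 genes), keratin-positive cells 5 (2 genes) and B, NK, dendritic, mast and endothelial cells 10 (2 genes each). Droplets passing more than 1 gate were left out as possible doublets (10.7% of Control and 12.4% of Motolimod barcodes), with no doublet caller, and 4.70% and 8.00% passed none. Classes with under 50 cells in a library (B, NK, dendritic, mast and endothelial cells) were not compared. Macrophage states were assigned by the highest z score of their mean log marker level, at least 0.5, otherwise the cell stayed in the remainder. Gate values and the scoring rule were set after seeing the data.

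UMIs were summed per class and library and divided by the class total. Intervals are exact (Poisson for CPM, conditional binomial for ratios, Clopper-Pearson for shares) at 95%, for counting error only. A gene counted as measured with a mean of at least 5 CPM over the 2 groups compared, and a member as higher or lower at 1.5-fold, a rule of size and no test. An upper limit for 0 UMIs used 3 counts. Shares of cells were compared after thinning each cell to 1000 UMIs, for which 37 Control and 105 Motolimod macrophages and 33 and 118 neutrophils were too shallow. Named in detail, by rule, were the 8 members with most UMIs, up to 6 per class with the largest Motolimod to Control ratio either way, the 3 that spread most over macrophage states in each library, and up to 3 per pathway list with the largest ratio in macrophages and neutrophils; pathway genes named in other contrasts were chosen after their values were seen. Tceb1, Tceb2 and Aldoa were not matched to a single gene and count as not measured. The script was tested on simulated counts. Alternatives were another scaling (median of ratios), equal weight per cell, thinning, mixed droplets kept, a stricter filter, doubled gates, no minimum level, the top member left out and Leiden clusters (2000 variable genes without members, 30 components, 15 neighbours, resolution 1.0). The tools were scanpy 1.11.5 with igraph 0.11.9 and leidenalg 0.10.2, numpy 2.4.6, pandas 2.3.3, scipy 1.17.1 and matplotlib 3.10.9 under Python 3.11.15.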

Additional observations from a re-analysis of the deposited data

How the results depend on the processing

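Of 130 recomputed values of the comparisons (sums and counts of members), 58 stayed within the counting interval or within 1.5 times the reported count. Another 71 left that range and 1, a sum, reversed, and counts were not judged for direction. Of 133 recomputed single-gene ratios, 3 reversed. Neutrophils over macrophages, and the member counts for the Mmp12 state, the chemokine split and the Gpnmb Cd36 state, were not recomputed under these alternatives. Sums below are Motolimod over Control ratios, followed by Mmp12 state over other macrophages and by neutrophils high over low for Ccl3 and Ccl4. Median-of-ratios scaling gave 0.808 in macrophages, 0.866 in neutrophils (1 member higher, 6 lower), 0.679 in T cells and 0.898 in keratin-positive cells, with 1.93 and 2.06 for the Mmp12 state and 2.10 and 1.44 for the chemokine split (Control and Motolimod). Equal weight per cell gave 0.749 in macrophages (5 lower), 0.831 in T cells and 0.945 in keratin-positive cells, 1.77 and 2.04 for the Mmp12 state, and 0.994 for Vegfa in T cells. Thinning to 1000 UMIs gave 0.743 in macrophages (7 lower), 1 higher member in neutrophils, 0.820 in T cells (4 lower), 1 higher and 1 lower in keratin-positive cells, 1.74 and 2.04 for the Mmp12 state, 1.35 and 1.14 for the chemokine split, and 1.18 for Ankrd37 in T cells. Keeping droplets of several lineages gave 0.822, 0.922 (1 higher) and 0.758 (0 higher) in macrophages, neutrophils and T cells, 1.67 and 1.80, 1.27 and 1.16, and 0.727 for Ndrg1 in neutrophils. The stricter filter gave 0.836 in macrophages, 1.14 in neutrophils (5 higher) and 1.33 for the Control chemokine split. Doubled gates gave 0.818, 0.911 (1 higher), 0.767 and 0.961 in the 4 classes, 1.67 and 1.83, and 1.33 and 1.07. Without the member with the highest CPM the class sums were 0.783, 0.926, 0.674 and 0.968. Leiden clusters gave 0.909 in neutrophils (1 higher, 6 lower), 0.752 in T cells (5 lower), 0.926 in keratin-positive cells, 1.59 and 1.77 for the Mmp12 state and 1.07 for the Motolimod chemokine split. With no minimum level 4 members were higher in neutrophils, 5 in T cells, and 1 higher and 2 lower in keratin-positive cells. Alternatives chosen after seeing the data gave 0.899 in macrophages with the Control mix of states, 0.785 in macrophages of 5000 to 15000 UMIs with 1.79 and 1.90 for the Mmp12 state, and 1.61 and 1.79 for the state gated without Arg1. The cause was not tested for any of these. No paired analysis was possible because each group has 1 library, and for the same reason no library could be left out. Depth limits the members with few UMIs most: Adm and P4ha2 in neutrophils, and Vegfa, Ndrg1 and Ankrd37 in T cells.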

Other observations

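Genes of neighbouring pathways differed between the libraries in neutrophils. Of the pentose phosphate list, which shunts glucose phosphate to NADPH, 4 of 7 measured genes exceeded 1.5-fold with Motolimod and 0 were lower by as much, with a median log2 ratio of 1.19 against 0.14 over all genes, of which 27.7% were higher and 18.0% lower. The entry enzyme G6pdx was at 15.96 CPM (17 UMIs) in Control and 36.3 CPM in Motolimod neutrophils, Pgd at 78.9 and 179 CPM, Rpe at 4.69 and 12.5 CPM and Rpia at 4.69 CPM (5 UMIs) and 15.9 CPM, so the Control values of Rpe and Rpia rest on few UMIs. Rpe and Rpia reached the minimum of 5 CPM through the Motolimod library alone, so the filter decided their direction. Both are part of the count and of the median. In macrophages the same genes lay between 0.976 (Rpia) and 1.29 (G6pdx), and Tkt, a transketolase of the pathway, was lower (0.595, 0.580 to 0.609).

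Of the citric acid cycle list, 5 of 14 measured genes were lower in Motolimod neutrophils and 0 higher, beside the same 18.0% and 27.7% of all genes. Fumarate hydratase, Fh1, stood at 14.1 CPM (15 UMIs) and 1.31 CPM (7 UMIs), and the isocitrate dehydrogenase subunit Idh3a at 11.3 CPM (12 UMIs) and 1.69 CPM (9 UMIs). Fh1 and Idh3a reached the minimum of 5 CPM through the Control library alone, so the filter decided their direction in neutrophils. They are part of the count. Both were lower in Motolimod macrophages too, Fh1 at 62.6 and 38.6 CPM and Idh3a at 55.2 and 32.9 CPM. With 1 library per group these differences have no replicate check.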
